A study of Homo sapiens with 4 samples.

Results

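The interferon-linked genes of the ADP-ribosylation system (*PARP9*, *DTX3L*, *PARP14*, *PARP10*, *PARP12* and *ZC3HAV1*), which interferon is known to raise, were followed in glioblastoma cells with less *FLI1*, beside *PARP1*, their constitutively expressed relative. The genes were chosen by name, and the 7 are drawn from 46660 gene identifiers in the table. All 7 had at least 10 counts in every library and entered every comparison.

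RNA-seq was performed on 4 libraries of U87MG and U251MG, which are established human glioblastoma cell lines grown in serum. In each cell line, 1 library was of cells carrying a lentiviral hairpin against *FLI1* (genotype label FLI1 knockdown, here shFLI1) and 1 of cells carrying the empty pGreen vector (titled shControl, here control). The paper describes lentiviral infection and puromycin selection of mixed stable cells, without stating again that the sequenced cells were these. If they were, each library was made from a mixed stable population, neither a clone nor a set of replicate cultures. An uninfected library was not analysed here. The paper lists 2 shRNAs against *FLI1*, without a label saying which went into which cells. The comparison asks what these genes do when *FLI1*, a transcription factor of the ETS family, is lowered.

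The libraries held between 12229780 and 28891055 counts, with more in shFLI1 than in control cells (1.74 times in U87MG and 1.60 times in U251MG). With 1 library per arm there is no spread between replicates, so the 95% intervals given for fold changes within a cell line are Clopper-Pearson intervals of the read proportion and cover counting error only. *FLI1* itself was at 9.34 CPM (read counts made comparable between libraries) in U87MG control and 2.34 in U87MG shFLI1, and at 12.1 in U251MG control and 3.71 in U251MG shFLI1. Its log2 fold change was -1.95 (-2.51 to -1.51) in U87MG and -1.68 (-2.05 to -1.37) in U251MG. Of the 8 glial and glioma markers listed, *VIM*, *CD44*, *NES*, *SOX2*, *EGFR* and *GFAP* were counted in every library, *OLIG2* had 2 counts at most and *S100B* 11 at most. The summed counts of the leukocyte markers were between 10 and 37 per library and those of the endothelial markers between 15 and 70, and of the epithelial markers *CDH1*, a cadherin, had 1 count at most while *KRT18*, a keratin, had 1562 to 5022 (log2 fold change -0.68 in U87MG and -0.56 in U251MG). *GFAP*, an astrocyte filament protein, moved with the knockdown in both cell lines (log2 fold change 1.32 in U87MG and 2.19 in U251MG), and whether the shifts of these markers bear on the genes below was not tested. In bulk RNA, fewer cells expressing a gene and less RNA per cell cannot be told apart.

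PARP proteins transfer ADP-ribose from NAD+ to proteins or nucleic acids, and most of the interferon-linked members add single units where PARP1 builds chains at broken DNA. Interferon receptors signal to promoters that hold an interferon-stimulated response element (ISRE), which a complex containing STAT2 and IRF9 binds, or a gamma-activated site (GAS), which STAT dimers bind. PARP9 and the ubiquitin ligase DTX3L form a complex, and their genes are arranged head to head around a shared interferon-responsive promoter.

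The stretches of promoter in which such elements were found are shown because each of the 5 interferon-linked genes that could be searched held at least 1. The sixth, *PARP10*, had no promoter window and was not searched. They are RefSeq sequences of GRCh38.p14, written 5′ to 3′ on the strand of the gene, with matches in capitals. In the *DTX3L* line the capitals are an ISRE that lies in the windows of both *DTX3L* and *PARP9*. In the *PARP14* line they are a GAS and then an ISRE, in the *PARP12* line an ISRE read on the other strand, and in the *ZC3HAV1* line a GAS.
DTX3L and PARP9, chr3:122564312-122564341, plus strand: ggagggacctccagggaagcGAAACTGAAA
PARP14, chr3:122680779-122680838, plus strand: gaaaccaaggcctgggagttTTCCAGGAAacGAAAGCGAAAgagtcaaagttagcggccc
PARP12, chr7:140062952-140063011, minus strand: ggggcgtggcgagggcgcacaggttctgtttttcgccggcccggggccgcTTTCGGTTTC
ZC3HAV1, chr7:139109801-139109850, minus strand: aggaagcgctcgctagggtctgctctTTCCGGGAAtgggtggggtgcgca

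Windows of 300 bases, from 250 before to 50 after each annotated start, were searched on both strands. RefSeq gave 7 such windows for 6 of the genes, and *PARP10* was not among them. The ISRE written GAAANNGAAA was found in 4 of the 7 windows, those of *PARP9*, *DTX3L*, *PARP14* and *PARP12*, where 3.57% of all 35116 windows hold it. The form with 3 bases between, GAAANNNGAAA, was found in 0 of 7 (2.86% of all windows). The *PARP9* and *DTX3L* matches are the same 10 bases at chr3:122564332-122564341, at positions -6 to 4 relative to the start of *DTX3L* and -41 to -32 relative to that of *PARP9*. The *PARP14* ISRE lies at -29 to -20 and the *PARP12* ISRE at -10 to -1. A GAS, TTCNNNGAA, was found at -40 to -32 in *PARP14* and at -104 to -96 in *ZC3HAV1*, and in 7.66% of all windows. The ETS letters CCGGAA, a form that ETS factors such as FLI1 are known to bind, were found in 1 of the 7 windows, that of *ZC3HAV1*, where they overlap the GAS, and in 17.2% of all windows. The *PARP1* window held none of these letters. A match describes the sequence and was not tested as a binding site.

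All 6 interferon-linked genes were lower in the shFLI1 library than in the control library of both cell lines, while *PARP1* was not. Past 2-fold, the call used within a cell line, were 3 of the 6 in U87MG (*DTX3L*, *PARP10* and *PARP12*), where 4.45% of all 17355 genes tested were lower and 10.0% higher by that much. In U251MG 5 of the 6, all but *ZC3HAV1*, were past 2-fold lower, against 4.19% lower and 5.57% higher of 18222 genes tested. The median log2 fold change of the 6 was -1.01 in U87MG and -1.78 in U251MG, beside 0.06 and 0.04 over all genes tested.

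**Figure D1:**
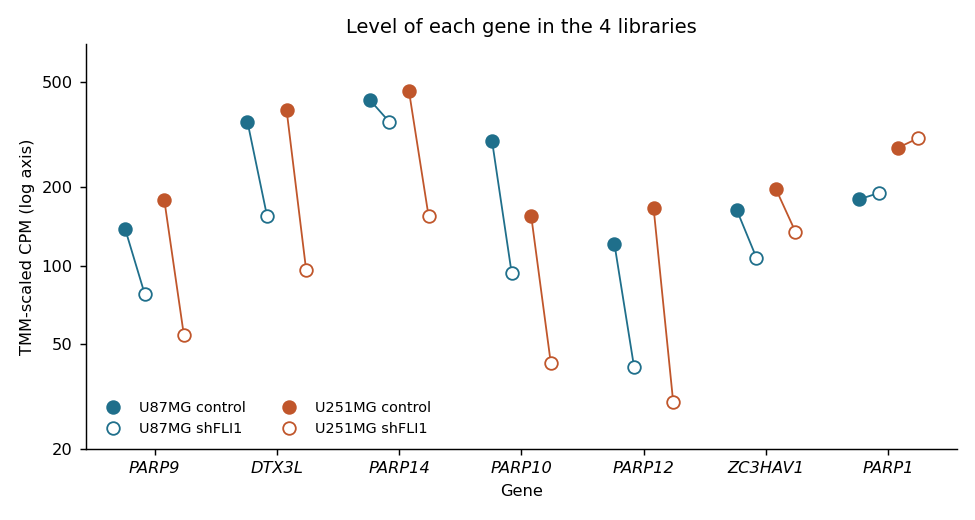
Level of each of the 7 genes in the 4 libraries, as CPM scaled by TMM (log axis); filled points are control libraries, open points shFLI1 libraries, and a line joins the 2 libraries of a cell line. The open point lies below the filled one in both cell lines for the 6 interferon-linked genes and slightly above it for *PARP1*.

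*PARP9* and *DTX3L* encode the complex named above, in which DTX3L is the ubiquitin ligase and PARP9 carries macrodomains that read ADP-ribose. *PARP9* was at 138 CPM in U87MG control, 77.9 in U87MG shFLI1, 178 in U251MG control and 54.3 in U251MG shFLI1. *DTX3L* was at 353.5 CPM in U87MG control, 154.5 in U87MG shFLI1, 391 in U251MG control and 95.8 in U251MG shFLI1. For both genes the 2 control libraries lay above both shFLI1 libraries, and the U251MG shFLI1 library was the lowest. The log2 fold change of *PARP9* was -0.82 (-0.92 to -0.73) in U87MG and -1.71 (-1.80 to -1.62) in U251MG. That of *DTX3L* was larger in both cell lines, at -1.19 (-1.26 to -1.13) and -2.03 (-2.09 to -1.97), and in neither cell line did the counting intervals of the partners overlap. In shFLI1 cells *DTX3L* stood at 43.7% of its control level in U87MG and 24.5% in U251MG, and *PARP9* at 56.5% and 30.6%.

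Per length of transcript the value of *DTX3L* was above that of *PARP9* in every library. The FPKM of *DTX3L* (a level per transcript length, as the authors computed it) was 1.36 times that of *PARP9* in U87MG control and 1.23 times in U251MG control. In the shFLI1 libraries the ratio was 1.16 in U87MG and 1.05 in U251MG, so it was smaller after knockdown in both. In U251MG shFLI1 the values were close, 18.05 FPKM for *DTX3L* and 17.26 for *PARP9*. Since FPKM carries no error here, their order in that library cannot be told. *DTX3L* is represented by 1 RNA in the table and *PARP9* by 20. GENCODE places the starts of the 2 genes 38 bases apart on opposite strands. The sources used here do not state whether counting used strand, so reads from any overlap of the pair cannot be told apart.

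**Figure D2:**
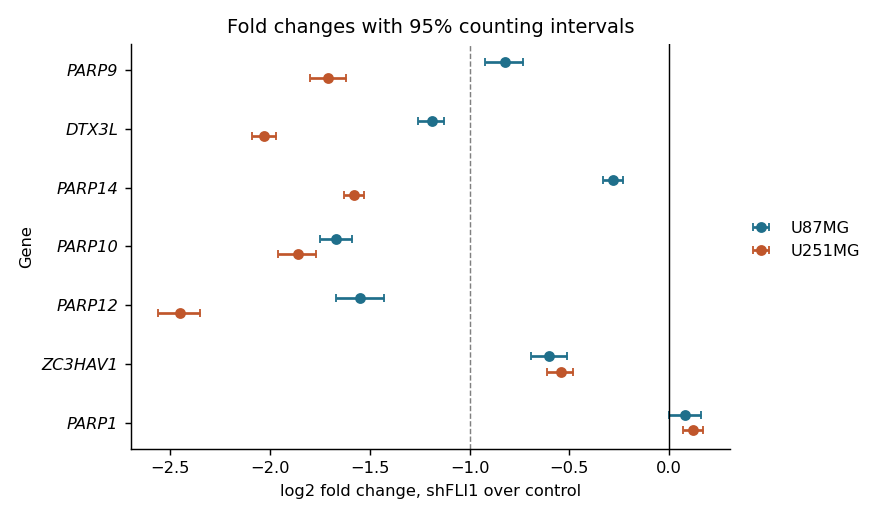
Log2 fold change, shFLI1 over control, of each gene in U87MG and U251MG with 95% counting intervals; the solid line marks no change and the dashed line 2-fold lower. A total of 3 genes lie left of the dashed line in U87MG and 5 in U251MG. The values of *PARP10* and *ZC3HAV1* differ less between cell lines than those of the other interferon-linked genes.

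*PARP14*, a large macrodomain protein that adds single ADP-ribose units, starts 116.5 kb from *PARP9*. It was at 428.5 CPM in U87MG control, 353 in U87MG shFLI1, 464 in U251MG control and 155 in U251MG shFLI1. Only the last library stood far from the others. The log2 fold change was -0.28 (-0.33 to -0.23) in U87MG and -1.58 (-1.63 to -1.53) in U251MG, which is the widest gap between the cell lines among the 7 genes (-1.30). The U87MG value was -0.07 on the log2(FPKM + 1) scale, where the median of all genes tested in U87MG was 0.14 (0.06 on the CPM scale). On the CPM scale 21.8% of all tested genes were at or below the U87MG value of *PARP14*. The gap between the cell lines was not tested for this or any gene, since 1 library per arm leaves no residual degree of freedom for it.

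The RNAs of *PARP14* differed in U87MG. NM_017554, which took 84.2% to 88.2% of the gene's counts, was at 363 CPM in U87MG control and 297 in U87MG shFLI1. The predicted XM_011512928 went from 41.3 to 10.7 CPM in U87MG, whereas XM_011512929 went from 24.4 to 45.0. In U251MG all of these were lower in shFLI1 cells, with log2 ratios of -1.54, -2.47 and -1.44 in the order given. The split of reads between RNAs of a gene is an estimate by the authors' tool and carries no interval here.

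The locus could be compared with its surroundings. By GENCODE starts, 8 other genes that RefSeq lists as protein-coding lie within 250 kb of the *PARP9* start. Of these, 7 had enough counts to be tested. None of these 7 (0 of 7) was past 2-fold lower in either cell line. Of all genes tested, 4.45% were past 2-fold lower in U87MG and 4.19% in U251MG. Their log2 fold changes ran from -0.29 to 1.05 in U87MG and from -0.18 to 0.65 in U251MG. *PARP15*, another macrodomain PARP, starts 13.35 kb from *PARP9*, between *DTX3L* and *PARP14*, and was higher in U87MG shFLI1 cells (1.05, 0.47 to 1.73, from 28 and 115 counts) with 0.15 (-0.43 to 0.76) in U251MG. In U251MG *PARP9*, *DTX3L* and *PARP14* therefore stood below all 7 neighbours, and in U87MG the value of *PARP14* (-0.28) lay within the range of those neighbours.

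**Figure D3:**
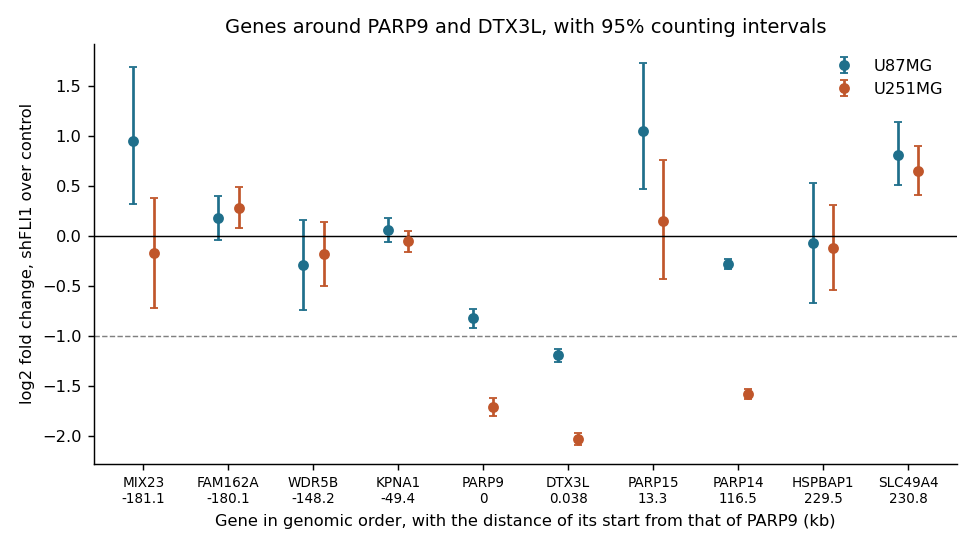
Log2 fold change, shFLI1 over control, of the protein-coding genes with at least 10 counts in a library whose start lies within 250 kb of that of *PARP9*, in genomic order with the distance in kb; bars are 95% counting intervals and the dashed line marks 2-fold lower. *PARP9*, *DTX3L* and *PARP14* are the 3 genes past the dashed line in U251MG, and *DTX3L* alone passes it in U87MG.

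*PARP10* and *PARP12* encode enzymes that add single ADP-ribose units, PARP12 with RNA-binding zinc fingers of the type found in ZC3HAV1. *PARP10* was at 297 CPM in U87MG control, 93.4 in U87MG shFLI1, 154 in U251MG control and 42.3 in U251MG shFLI1. Its log2 fold changes were close, -1.67 (-1.75 to -1.59) in U87MG and -1.86 (-1.96 to -1.77) in U251MG, though their counting intervals did not overlap. Its control level was lower in U251MG than in U87MG. *PARP12* was at 121 CPM in U87MG control, 41.1 in U87MG shFLI1, 166 in U251MG control and 30.3 in U251MG shFLI1. It had the strongest drop of the 7 genes in U251MG, to 18.3% of control (log2 fold change -2.45, -2.56 to -2.35), and stood at 34.1% in U87MG (-1.55, -1.67 to -1.43). Ranked from the lowest fold change of all genes tested, *PARP12* was number 172 in U251MG and *PARP10* number 277 in U87MG. For both genes 1 RefSeq mRNA took most of the counts, NM_032789 with 85.8% to 92.8% for *PARP10* and NM_022750 with 83.7% to 87.7% for *PARP12*. The log2 ratio was -1.66 in U87MG and -1.84 in U251MG for the first of these RNAs and -1.56 and -2.50 for the other.

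**Figure D4:**
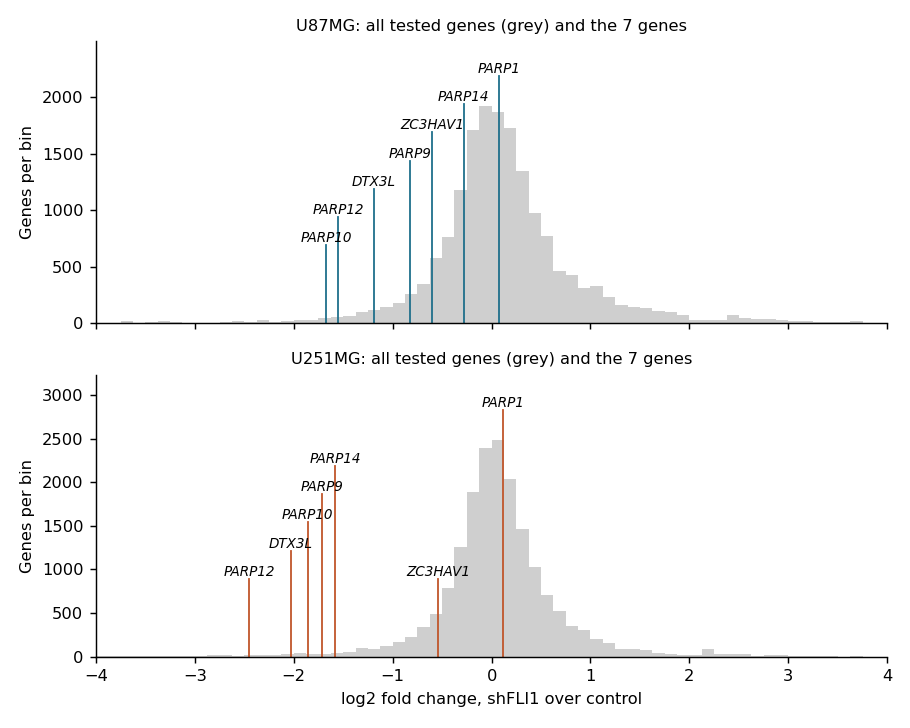
Log2 fold changes, shFLI1 over control, of all genes tested in U87MG (top) and U251MG (bottom) as counts of genes per bin (axis from -4 to 4), with the 7 genes as vertical lines whose heights only separate the labels. In U251MG 5 genes stand in the left tail, with 0.944% to 1.998% of all tested genes at or below them; in U87MG the 6 interferon-linked genes are spread from the left tail (*PARP10*, 1.60%) to near the centre (*PARP14*, 21.8%).

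*ZC3HAV1* encodes ZAP (also PARP13), which lacks catalytic activity and directs RNA rich in CpG to decay. It was at 163 CPM in U87MG control, 107 in U87MG shFLI1, 196 in U251MG control and 134 in U251MG shFLI1. Both shFLI1 libraries lay below both control libraries, but by less than 2-fold. The log2 fold change was -0.60 (-0.69 to -0.51) in U87MG and -0.54 (-0.61 to -0.48) in U251MG, so the intervals of the cell lines overlapped.

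The RNAs of *ZC3HAV1* differed more than their sum. NM_024625 encodes the short protein form, which interferon is known to raise through an earlier polyadenylation site, and it was at 71.7 CPM in U87MG control, 37.1 in U87MG shFLI1, 93.7 in U251MG control and 42.6 in U251MG shFLI1. Its log2 ratio was -0.95 in U87MG and -1.14 in U251MG. NM_020119 encodes the long form, which is anchored to membranes by a lipid, and it was at 40.4 CPM in U87MG control, 19.8 in U87MG shFLI1, 33.0 in U251MG control and 44.9 in U251MG shFLI1. The log2 ratio of the long form was thus -1.03 in U87MG and 0.44 in U251MG. A further coding RNA, NM_001363491, was at 49.9 CPM in both U87MG libraries, 68.5 in U251MG control and 46.4 in U251MG shFLI1. The short form was the RNA with the lower share of its gene's counts after knockdown in both cell lines (44.04% to 34.6% in U87MG, 47.8% to 31.7% in U251MG). These RNAs share most of their exons, so the split rests on the authors' estimates.

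**Figure D5:**
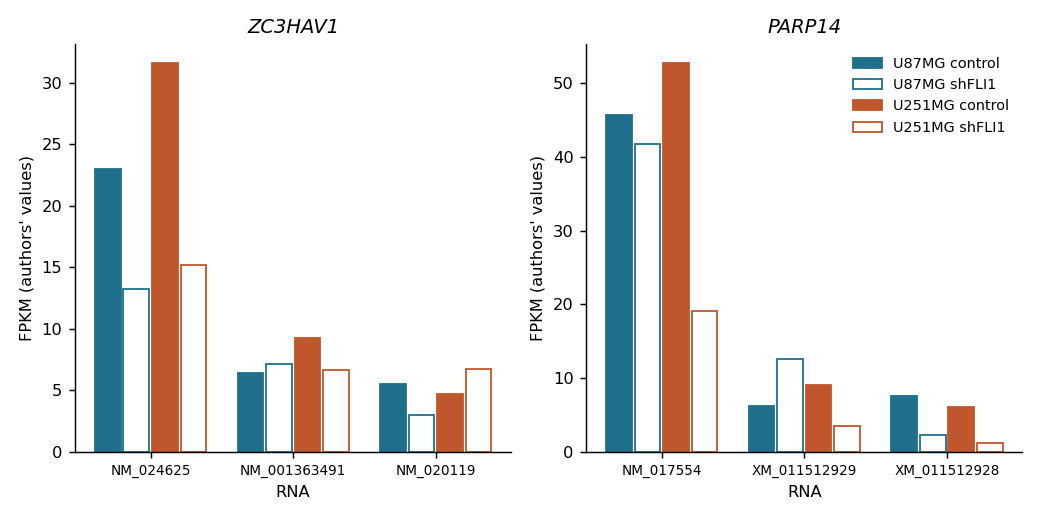
FPKM (the authors' values) of the 3 RefSeq RNAs of *ZC3HAV1* (left) and of *PARP14* (right) in the 4 libraries; filled bars are control and open bars shFLI1 libraries. NM_024625 is lower in shFLI1 cells of both cell lines, while NM_020119 in U251MG and XM_011512929 in U87MG are higher. NM_001363491 in U87MG is slightly higher in FPKM (6.42 in control and 7.15 in shFLI1) but level in CPM (49.9 in both).

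*PARP1*, the DNA-break sensor that makes most cellular poly(ADP-ribose), was at 179 CPM in U87MG control, 189 in U87MG shFLI1, 282 in U251MG control and 306 in U251MG shFLI1. The libraries grouped by cell line and not by knockdown. Its log2 fold change was 0.08 (0.00 to 0.16) in U87MG and 0.12 (0.07 to 0.17) in U251MG, close to the median of all genes tested.

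A shared contrast took the 2 cell lines as replicates of the knockdown and blocked for cell line, using the quasi-likelihood test of edgeR on all 4 libraries, with Benjamini-Hochberg adjustment over 16649 genes. Of the 6 interferon-linked genes, 4 fell in this test, where 2.14% of all genes were called lower (356) and 0.919% higher (153). The log2 fold change was -1.78 for *PARP10* (adjusted p = 0.000523), -2.02 for *PARP12* (adjusted p = 0.002), -1.63 for *DTX3L* (adjusted p = 0.00558) and -1.29 for *PARP9* (adjusted p = 0.0144), each lower in 2 of 2 cell lines. *ZC3HAV1* (-0.59, adjusted p = 0.0656) and *PARP14* (-0.95, adjusted p = 0.122) did not pass although they too were lower in 2 of 2 cell lines, and *PARP1* was at 0.08 (adjusted p = 0.839). The median over the 6 was -1.46, against 0.01 over all genes tested. The test has 1 residual degree of freedom, and 0 of all genes, hence 0 of the 6, were called when edgeR was run without the block (725 genes at an unadjusted p under 0.05) or limma on log2(FPKM + 1) with it (2155 genes). DESeq2 with the block called 4 of the 6 lower, where 312 of all 16649 genes were called lower and 93 higher. With library totals in place of TMM, 199 of all genes were called lower and 166 higher, and the same number of members (4) fell.

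Per length, the order of the genes changed with the knockdown. In U87MG control *PARP10* was highest at 98.6 FPKM and *ZC3HAV1* lowest at 35.8, with *PARP1* at 46.3. These values sum all RNAs of a gene, and short RNAs with few counts can add much to them. In that library URS0000D6DDD2 gave 11.6 FPKM of *PARP10* from 45.9 counts, and NM_032789 gave 78.95. For *PARP12*, NM_022750 gave 35.85 of 47.07 FPKM. In U251MG control *PARP1* led at 75.0 FPKM and *ZC3HAV1* was again lowest at 46.6. In U251MG shFLI1 cells *PARP1* was at 85.7 FPKM, *ZC3HAV1* came next at 29.1, and *PARP12* was lowest at 12.5. As a share of the FPKM of *PARP1*, the 6 interferon-linked genes ranged from 77.2% to 213% in U87MG control and from 33.5% to 107% in U87MG shFLI1. They ranged from 62.1% to 93.2% in U251MG control and from 14.5% to 34.0% in U251MG shFLI1. Neighbours in this order cannot be separated where they are close, such as *DTX3L* at 60.07 and *PARP14* at 59.95 FPKM in U87MG control, since FPKM carries no error here.

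Before knockdown the cell lines differed most in *PARP10*. Its log2 CPM in U251MG control minus that in U87MG control was -0.95 (-1.02 to -0.88), the only negative value among the 7 genes. The other interferon-linked genes were higher in U251MG control by 0.11 (*PARP14*) to 0.46 (*PARP12*), and *PARP1* by 0.66 (0.58 to 0.73). The control libraries in this comparison also enter the fold changes above.

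The upstream side of the pathway was described with STAT2 and IRF9, which take part in the complex that binds the ISRE. STAT3, a further STAT protein, was set beside them. The log2 fold change of *STAT2* was -1.36 in U87MG cells and -1.51 in the other cell line (adjusted p = 0.00127 in the shared edgeR test), and that of *IRF9* -0.96 and -1.31 (adjusted p = 0.00577), so both fell and each was lower in 2 of 2 cell lines. *STAT3* had log2 fold changes of 0.36 and 0.11. Transcripts of interferons themselves were near 0 in every library, with 6 to 16 summed counts over the 3 of 9 listed genes that were analysed here (*IFNB1*, *IFNA1* and *IFNE*).

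Of the 11 other PARP genes, 0 were past 2-fold lower and 2 higher in U87MG, 2 lower and 0 higher in U251MG, and 1 lower in the shared test (*PARP6*, -0.69, edgeR adjusted p = 0.0391, lower in 2 of 2 cell lines), where DESeq2 called *PARP2* and not *PARP6*. The 2 higher ones in U87MG were *PARP8* (1.11) and *PARP15* (1.05). The 2 lower ones in U251MG were *PARP8* (-1.15, from 22 and 15 counts) and *PARP2* (-1.16), of whose counts 95% to 98.7% fell on 2 short RNAs in each library. The median of the 11 was -0.17 in U87MG and -0.03 in U251MG, beside 0.06 and 0.04 over all genes tested. Among all genes tested, 4.45% were past 2-fold lower and 10.0% higher in U87MG, and 4.19% lower and 5.57% higher in U251MG. The shared edgeR test called 2.14% of all genes lower and 0.919% higher.

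Among the enzymes that remove ADP-ribose, 5 were tested in U87MG and 4 in U251MG, and none was past 2-fold lower (0 in each). *MACROD2* was past 2-fold higher in U87MG on 1 and 12 counts (1.78, -0.13 to 8.04), and *ADPRS*, a hydrolase that acts on serine-linked ADP-ribose, fell in the shared test (-0.69, edgeR adjusted p = 0.0379, lower in 2 of 2 cell lines), though DESeq2 called 0 of these enzymes. Of the other Deltex ligases none (0) was past 2-fold in either cell line, and *DTX2* fell in the shared test (-0.67, edgeR adjusted p = 0.0382, lower in 2 of 2 cell lines), where DESeq2 called 0. Of the cofactors of ZAP, *TRIM25*, the ubiquitin ligase it needs for antiviral activity, was at -0.68 in U87MG and -1.09 in U251MG and fell in the shared test (edgeR adjusted p = 0.0216, lower in 2 of 2 cell lines). *KHNYN*, the nuclease that works with ZAP, had log2 fold changes of -0.41 and -0.20. Of the 6 repair partners of PARP1 and the 6 genes of NAD supply, 0 were past 2-fold and 0 were called in the shared test by edgeR or DESeq2. In each list 2 had an unadjusted edgeR p under 0.05, as had 2751 of all 16649 genes in that test. The largest mean change among the repair partners was that of *LIG3*, a DNA ligase (0.71 and 0.33). Among the genes of NAD supply it was that of *NMNAT2*, an NAD-synthesising enzyme (1.00 and 0.37). For every list here, the shares of all genes past 2-fold or called are those given for the other PARP genes.

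The genes whose pattern was most like that of *PARP9* were *PDZD2*, *IRF1*, *NPIPA1*, *PDE4B* and *KYNU*, at Euclidean distances of 0.09 to 0.29 over the 2 log2 fold changes and the log2 difference between control libraries, among 14037 genes with at least 10 counts in every library. *DTX3L* came 38th in that order at a distance of 0.54. Nearest to *DTX3L* were *C1S*, *ACTA2*, *TAP2*, *FLJ32255* and *TRIM21* at 0.28 to 0.37, and *PARP9* came 18th. The partners of the shared promoter were thus near each other in pattern without being nearest. Genes outside that promoter came almost as close. *PARP14* was at 0.61 from *PARP9* (56th), and *PARP12* at 0.64 from *DTX3L* (36th). The remaining interferon-linked genes stood at 1.04 to 1.57 from *PARP9*, and at 1.02 to 1.60 from *DTX3L*. *PARP1* stood farther off, at 2.06 from *PARP9* and 2.55 from *DTX3L*. Whether the shared promoter bears on the likeness of the partners was not tested.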

How the data were processed

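RNA-seq of U87MG and U251MG cells, 1 control and 1 shFLI1 library each, was assigned to groups by the sample titles. Per the paper's methods the authors selected poly(A) RNA, sequenced paired reads, aligned them to GRCh38 (GRCh38.p13 in the submitters' processing notes) with HISAT2 and obtained FPKM from StringTie; the tool behind the counts and its strand setting are not given in the sources used here. The authors' deposited table holds an estimated count, not normalized, and an FPKM per RNA and library. 10 further value columns (TPM and means) were not used, nor were 31346 circular RNAs.

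Counts of 185042 linear RNAs were summed per gene identifier to whole numbers, and RefSeq gave a symbol to 23775 of 24411 Entrez identifiers. Levels are CPM with TMM factors from all 4 libraries, and fold changes add a prior count of 2. Within a cell line the genes tested had 10 or more counts in at least 1 of its libraries, and past 2-fold was called. The shared test was edgeR's quasi-likelihood test (two-sided, cell line as a block, filterByExpr, Benjamini-Hochberg, threshold 0.05). Cultures were not stated to be independent, and PCR reads are not independent molecules. R 4.3.3, edgeR 4.0.16, DESeq2 1.42.0, limma 3.58.1 and Python 3.11.15 were used, and the scripts were tested on simulated data.

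The genes, lists and tests were chosen with earlier results of these data known. Named are the 7 genes and *FLI1*, genes of the lists past 2-fold in a cell line or, where a list had none, its largest mean change, the 5 genes nearest to *PARP9* and to *DTX3L*, and neighbours within 250 kb of *PARP9*; other genes were named after their values were seen. Gene starts and the distances between them are those of GENCODE canonical transcripts. Promoter windows are from RefSeq on GRCh38.p14. The marker genes *CD3E*, *EPCAM*, *CDKN2A* and *CDKN2B* were not analysed here. Some listed genes are not reported here.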

Additional observations from a re-analysis of the deposited data

Results flagged for a closer look

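Among the genes of the lists other than the cell type markers, 8 had log2 fold changes of opposite sign in the cell lines, with 1 library per arm, and the difference between the cell lines was not tested. In 1 of them both 95% counting intervals excluded 0, *PARP8*, a PARP outside the interferon-linked set, at 1.11 in U87MG (85 and 360 counts) and -1.15 in U251MG (22 and 15 counts). In the others at least 1 interval included 0. These were *PARP16* (-0.50 in U87MG and 0.14 in U251MG), *PARG* (0.18 and -0.12), *OARD1* (-0.14 and 0.12), *HPF1* (0.00 and -0.03), *CHD1L* (-0.17 and 0.05), *NAPRT* (-0.13 and 0.29) and *NMNAT3* (0.36 and -0.13). Of the markers tested in both cell lines, *VIM* (-0.05 and 0.08, both intervals excluding 0), *CD14* (-0.17 and 0.56) and *VWF* (-0.54 and 0.21) also had opposite signs. None of the 7 genes of the report (0 of 7) had opposite signs. The share of all genes tested with opposite signs was not counted, so these numbers have no background beside them.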

How the results depend on the processing

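No value of the 7 genes changed direction under any alternative run. In U87MG 5 of the 6 interferon-linked genes were past a 1.5-fold threshold (1722 of all 17355 genes lower) and 0 past 4-fold (195 genes), against 3 at 2-fold (772 genes). In U251MG 2 were past 4-fold (245 of 18222 genes), against 5 (763 genes). In the shared test, edgeR called 4 of the 6. It called 0 without the cell line block, where 0 of all genes were called and 725 had an unadjusted p under 0.05, and limma on log2(FPKM + 1) also called 0, with 0 of all genes called and 2155 unadjusted. It called 6 with at least 1 count in any library and 5 when every library needed 100 counts (324 of all 9772 genes lower). DESeq2 with the block called 4, with 312 of all 16649 genes lower and 93 higher. Over these alternatives the adjusted p ran from 2.6e-12 to 0.772 for *PARP9*, 1.51e-19 to 0.719 for *DTX3L*, 4.37e-24 to 1 for *PARP10* and 2.41e-30 to 0.559 for *PARP12*, each below 0.05 in 6 of 8. *ZC3HAV1* was below it in 2 and *PARP14* in 1. Fold changes of *PARP14* in U87MG ran from -0.34 to -0.07. Over all genes, library totals moved the U87MG median from 0.06 to 0.22, and at least 1 count in any library gave 736 lower and 567 higher of 43576 in the shared test. Other filters, prior counts, FPKM and fold thresholds moved the number of all genes lower within a cell line to between 195 (4-fold) and 2218 (no filter) in U87MG and between 245 and 2567 in U251MG. An alternative added after seeing the data, RefSeq RNAs only, left 333 lower and 149 higher. The cause of these shifts was not tested. The control and shFLI1 libraries carry no shared replicate numbers, so no pairing beyond the cell line block was possible. Depth limits genes with few counts, such as *MACROD2* (1 and 12 counts in U87MG).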

Other observations

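The counts of *PARP2*, a DNA-break sensor related to PARP1, lay almost wholly on 2 short RNAs, which took 95.3% of them in U87MG control, 98.7% in U87MG shFLI1, 95% in U251MG control and 97.6% in U251MG shFLI1. Of its RefSeq mRNAs, NM_005484 was at 9.85 CPM in U87MG control, 9.96 in U87MG shFLI1, 11.8 in U251MG control and 9.94 in U251MG shFLI1. Its log2 ratios were 0.02 and -0.25. The predicted XM_017020912 had more counts, at 127, 69.75, 113.7 and 118.1 CPM in the same order. Its log2 ratios were -0.87 in U87MG and 0.05 in U251MG. The value of -1.16 given for the gene in U251MG is thus that of the short RNAs. *RPPH1*, the RNA of ribonuclease P, is annotated on the opposite strand beside the start of *PARP2*, and whether the short RNAs belong to it was not tested.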
